A study of Homo sapiens with 8 samples.

Results

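The interleukin-1 system was followed through 9 genes chosen by name: the ligand genes IL1A, IL1B, IL18 and IL33, the antagonist gene IL1RN, the receptor genes IL1R1, IL1R2 and IL1RAP, and the protease gene CASP1. All 9 had at least 1 probe on the array, and they held 12 probes of the 42405 measured, which named 19483 gene symbols in all. The samples were U87 cells, a human glioblastoma line, reverse-transfected either with an siRNA that targets RND3 (siRND3) or with a non-silencing control oligo (siControl), by lipofectamine in every group. There were 3 siControl and 3 siRND3 arrays at 24 h after transfection, and 1 of each kind at 48 h. Oligos A and B against RND3 are given in the methods, but not which of them went into each siRND3 sample. Nothing in the labels says that replicates came from separate cultures, so p-values measure only the spread between these samples.

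Interleukin-1 alpha and interleukin-1 beta are inflammatory cytokines that bind the same receptor, IL1R1, which then recruits the accessory protein IL1RAP and signals through MYD88, the IRAK kinases and TRAF6 to NF-kB and AP-1. The precursor of interleukin-1 beta is cut by caspase-1, the product of CASP1, in inflammasomes. IL1RN encodes a receptor antagonist that competes with both cytokines, and IL1R2 a decoy receptor that binds ligand without signalling. Glioblastoma cells can make interleukin-1 and respond to it, and interleukin-1 induces its own genes in many cell types.

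The sequence before the gene start is shown for IL1A, IL1B and IL1RN, since these were the genes with a probe that was lower in siRND3 cells at 24 h or at 48 h. RefSeq windows of assembly GRCh38.p14 were matched for 7 of the 9 genes and not for IL18 and CASP1. Each line gives the 250 bases before a RefSeq start of the gene, 5′ to 3′ on the strand of the gene. The window of IL1A, the upstream of its 2 starts, is chr2:112784494-112784743 on the minus strand, that of IL1B chr2:112836780-112837029 on the minus strand, and that of IL1RN, the most upstream of its 3 starts, chr2:113117721-113117970 on the plus strand. Capitals mark matches on either strand to the NF-kB consensus, to AP-1 (TGANTCA), to NF-IL6 (TTNNGNAAT) or to TATAAA.
IL1A: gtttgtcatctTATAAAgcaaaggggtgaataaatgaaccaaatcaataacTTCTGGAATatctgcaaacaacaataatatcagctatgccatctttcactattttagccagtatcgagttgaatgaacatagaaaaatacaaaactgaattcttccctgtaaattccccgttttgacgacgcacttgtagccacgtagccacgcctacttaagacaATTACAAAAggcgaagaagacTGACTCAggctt
IL1B: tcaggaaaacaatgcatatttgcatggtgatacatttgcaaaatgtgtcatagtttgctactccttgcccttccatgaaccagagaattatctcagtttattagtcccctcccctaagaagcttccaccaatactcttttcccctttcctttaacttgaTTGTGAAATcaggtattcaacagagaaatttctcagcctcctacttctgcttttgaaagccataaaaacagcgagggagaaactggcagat
IL1RN: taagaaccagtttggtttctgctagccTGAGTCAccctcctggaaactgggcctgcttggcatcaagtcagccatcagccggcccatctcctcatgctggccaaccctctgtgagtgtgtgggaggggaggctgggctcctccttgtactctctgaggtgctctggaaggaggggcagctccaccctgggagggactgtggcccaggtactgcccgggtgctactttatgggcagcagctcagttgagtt
The upstream IL1A window held an AP-1 match from 12 to 6 bases before the start, NF-IL6 matches at 199 to 191 and at 33 to 25 bases, and TATAAA at 239 to 234 bases. The window of the other IL1A start, not shown, overlaps it and held AP-1 matches at 105 to 99 and 55 to 49 bases before that start and an NF-IL6 match at 126 to 118 bases. In the IL1B window the only match was to NF-IL6, 91 to 83 bases before the start, and in the IL1RN window shown it was to AP-1, 223 to 217 bases before the start. The window of another IL1RN start, not shown, held TATAAA on either strand at 32 to 27 and 30 to 25 bases before that start. It also held an NF-IL6 match at 113 to 105 bases, and the remaining IL1RN window held no match. Over all 35116 RefSeq windows of this length, 6.57% held the AP-1 letters, 9.85% those of NF-IL6 and 9.96% the NF-kB consensus, 3763 windows held TATAAA, and the NF-kB consensus was not matched in any of the 3 windows shown. No matches overlapped in the 3 windows shown, and the matches describe the letters only and are no measure of binding.

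RND3 was lower in every siRND3 array than in every siControl array. It was at 11.88, 11.91 and 11.90 on the log2 scale in siControl cells at 24 h against 10.12, 10.18 and 10.42 in siRND3 cells, which left 31.7% of the siControl level (limma adjusted p = 0.0003), and at 11.48 against 9.84 at 48 h. On an array, 68.3% to 70.7% of probes lay well above background, and replicates at 24 h correlated with r between 0.992 and 0.996 over probes. On the slide the siRND3 arrays lay in row 1 and the siControl arrays in row 2, so row and treatment cannot be told apart. Both arrays at 48 h lay in column 4 and those at 24 h in columns 1 to 3, so column and time cannot be told apart either. Of 7 glial and mesenchymal markers, 5 were well above background on 7 arrays and 6 on the other, with GFAP not above background on any array. At 24 h CD44, a mesenchymal marker that the study also names as lowered, fell by 0.58 (log2, limma adjusted p = 0.0072). Of the NES probes, for the neural marker nestin, 1 rose by 0.41 (limma adjusted p = 0.0472) and the other did not pass (0.23, limma adjusted p = 0.196). VIM, FN1 and SPARC of the same list did not pass, at -0.08, -0.24 and -0.05 (limma adjusted p = 0.596, 0.155 and 0.680). Of 8 microglial and macrophage markers, 7 had a probe and 5 were well above background on every array, but the microglial markers CX3CR1 and P2RY12 were not above background on any array. The log2 of the summed signals of that list was 12.83 to 12.86 in siControl and 12.82 to 13.01 in siRND3 cells at 24 h, and 12.74 and 12.94 at 48 h. Such a sum weighs the brightest probes most. All 5 endothelial markers were above background, and the log2 of their summed signals was 8.61 to 8.72 and 8.48 to 8.56 at 24 h, and 9.00 and 8.42 at 48 h. Of the markers of these other cell types, CSF1R (macrophages) fell by 0.35 and PECAM1 and KDR (endothelium) fell by 0.99 and 1.11 at 24 h (limma adjusted p = 0.0295, 0.0216 and 0.0394), and the rest did not pass. In bulk RNA, fewer cells making a transcript and less of it per cell cannot be told apart. The part of these markers in the results below was not tested.

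Of the 9 genes, 7 (10 of the 12 probes) had a signal well above background in every replicate of siControl or of siRND3 at 24 h and were tested. At 24 h, IL1A and IL1B were lower in siRND3 cells and the other 5 genes did not pass the test (limma, Benjamini-Hochberg adjusted p under 0.05 over all probes). The study itself names IL1A, IL1B and IL1R1 as lowered by the knockdown in this series. The calls of IL1A and IL1B are therefore no independent evidence. For comparison, 16.4% of all 14805 genes tested changed in either direction at 24 h, and 9.26% were lower. The median log2 difference over the 10 member probes was -0.17, against 0.05 over all probes. Groups did not overlap at 24 h for 7 of these 10 probes, against 34.4% of all tested probes with a value on all 6 arrays. With 3 arrays against 3, an exact permutation test of a single probe cannot go below p = 0.1 (two-sided), and those 7 probes reached it.

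**Figure D1:**
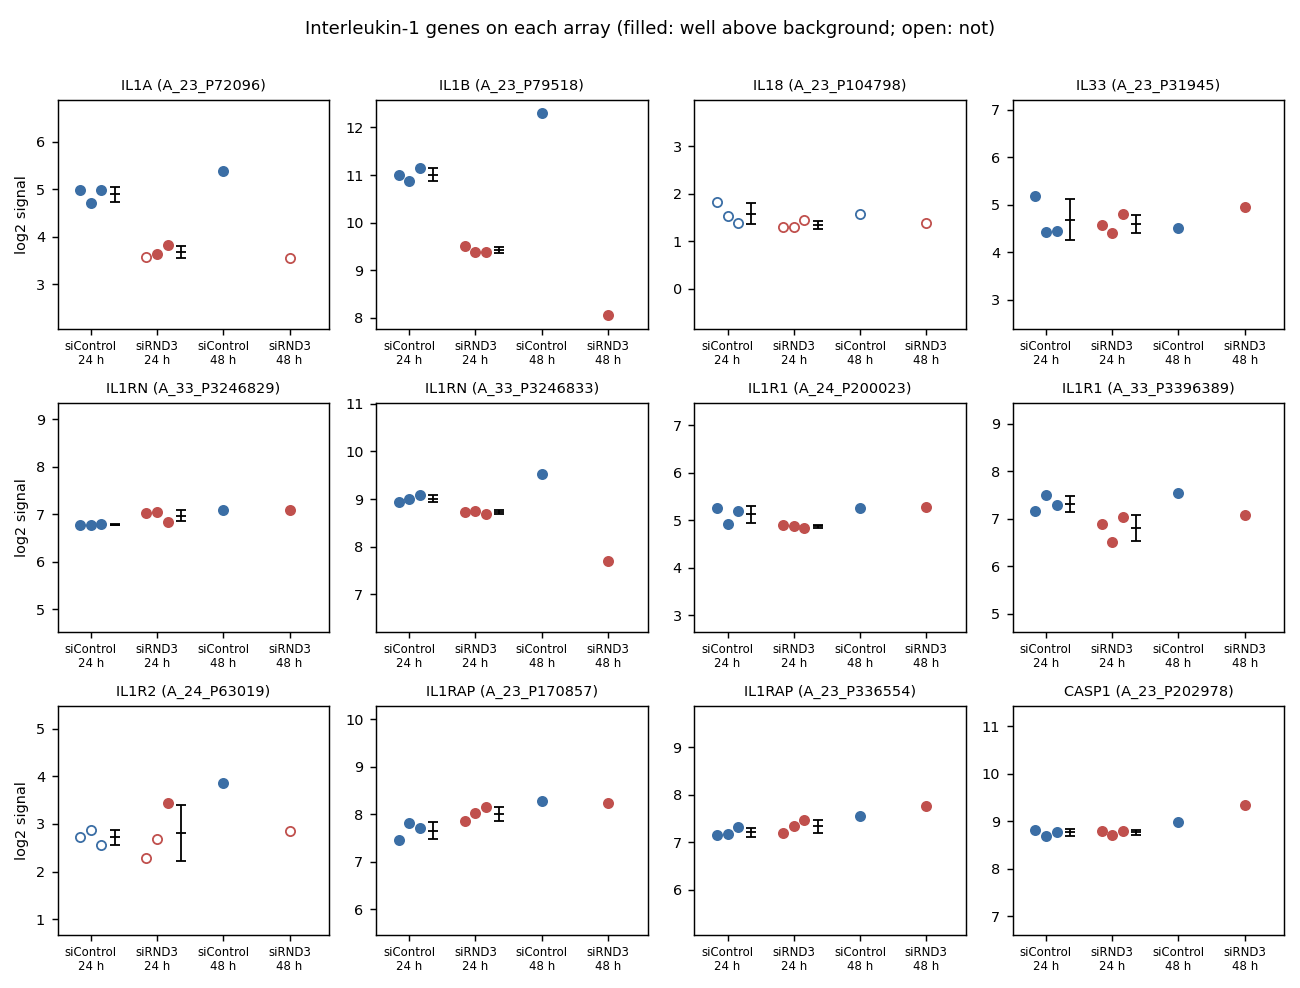
Log2 signal of the 12 probes of the 9 interleukin-1 genes on each of the 8 arrays, with each panel spanning the same range of log2 units. Points are arrays, filled where the probe was well above background and open where it was not, and bars are mean ± SD (n = 3). IL1B separated the groups at 24 h and spread to 12.29 in siControl and 8.05 in siRND3 cells at 48 h, while IL18 was open on all 8 arrays.

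Among the ligands, IL1B, the gene for the secreted cytokine interleukin-1 beta, gave the largest difference of the member probes at both times. Its log2 signal was 11.01, 10.87 and 11.15 in siControl cells at 24 h, 9.51, 9.39 and 9.38 in siRND3 cells at 24 h, 12.29 in siControl cells at 48 h and 8.05 in siRND3 cells at 48 h. The groups did not overlap at 24 h, and the gap between the single arrays at 48 h was wider. At 24 h the mean was 11.01 ± 0.14 (SD, n = 3) in siControl and 9.42 ± 0.07 in siRND3 cells, a log2 difference of -1.59 (SE 0.10, 95% interval -1.81 to -1.36, limma adjusted p = 0.0004), which is 33.3% of the siControl level. At 48 h the difference was -4.24 (SE 0.17, limma adjusted p = 0.0002), or 5.27% of the siControl level, taking the spread of the 24 h replicates for the single 48 h arrays, as in every test at 48 h below.

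The 4 groups thus stood in the order siRND3 at 48 h, siRND3 at 24 h, siControl at 24 h and siControl at 48 h, from low to high IL1B. From 24 h to 48 h IL1B rose by 1.29 (log2) in siControl cells (limma adjusted p = 0.0135) and fell by 1.37 in siRND3 cells (limma adjusted p = 0.0043), so each pair of neighbours in this order differed past the threshold. The difference between the knockdown effects at 48 h and at 24 h was -2.66 (SE 0.19, limma adjusted p = 0.0098). For comparison, 5.17% of all genes tested changed with time in siControl cells, 12.8% in siRND3 cells, and 4.24% had a knockdown effect that differed between the times. Without siControl replicate 1 the sizes of the rise in siControl cells and of the difference between times were 1.29 and -2.66 as before, with limma adjusted p = 0.0551 and 0.0587.

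IL1A encodes interleukin-1 alpha, which is active without cleavage by caspase-1 and can stay bound to the cell. Its signal was low: 4.98, 4.72 and 4.99 (log2) in siControl cells at 24 h, 3.58, 3.64 and 3.82 in siRND3 cells at 24 h, 5.38 in siControl cells at 48 h and 3.56 in siRND3 cells at 48 h. Each siRND3 array was below each siControl array, and IL1A was not well above background in siRND3 replicate 1 at 24 h or in siRND3 cells at 48 h. The log2 difference was -1.22 (SE 0.11, 95% interval -1.48 to -0.95, limma adjusted p = 0.0015) at 24 h, which is 43.0% of the siControl level. At 48 h, with the background correction used here, IL1A was at least 3.55-fold lower in siRND3 cells (limma adjusted p = 0.0017). The knockdown effects at the 2 times differed by -0.61, short of the threshold (limma adjusted p = 0.213). The size of the difference at 24 h depended on how background was handled: it was -0.26 after normexp correction with an offset of 50 (limma adjusted p = 0.0177) and -0.44 in the deposited log2 values (limma adjusted p = 0.0047). So did that at 48 h, which was -0.48 with normexp and -0.76 in the deposited values (limma adjusted p = 0.0093 and 0.0033), both smaller than the bound above. With the filter on all 6 arrays at 24 h, IL1A was not tested.

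The probes of IL1A, IL1B and IL18 were each printed in 10 spots, so the spread within an array could be read. For IL1B the SD over the 10 spots of an array was 0.04 to 0.09 (log2), and all 10 spots were well above background on all 8 arrays. For IL1A it was 0.20 to 0.83 over the 8 to 10 spots kept on an array. All its kept spots were well above background on the siControl arrays, against 4, 7 and 8 of 10 on the siRND3 arrays at 24 h and 1 of 9 in siRND3 cells at 48 h. The spots of a probe are technical repeats within 1 hybridisation and were averaged before any test.

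**Figure D2:**
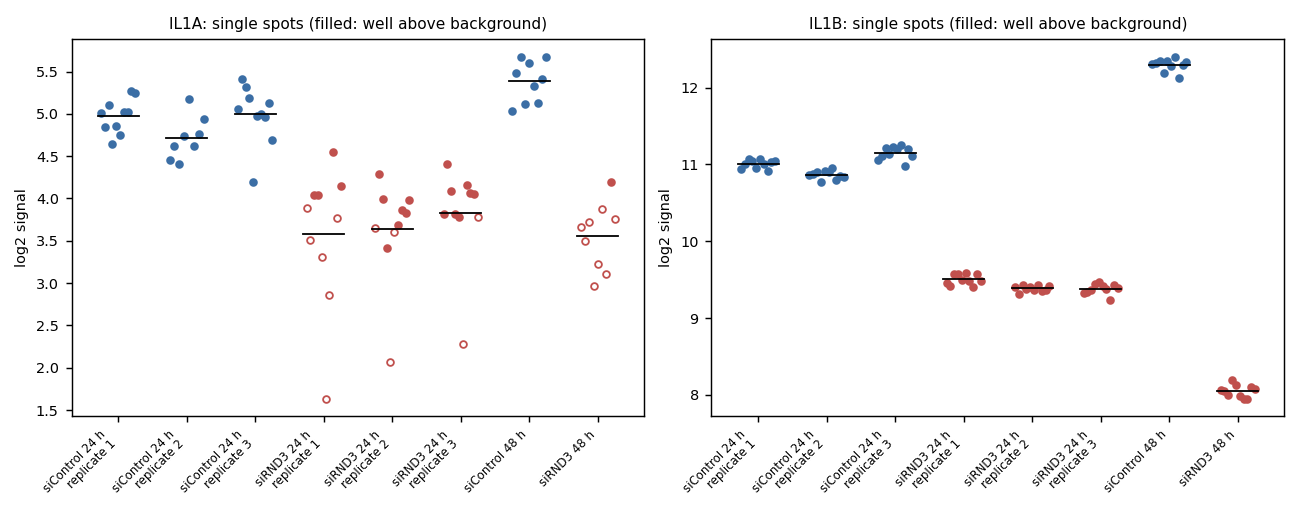
Log2 signal of every kept spot of IL1A (left) and IL1B (right) on each array, filled where well above background, with lines at the mean of the spots. The SD over the IL1B spots of an array was at most 0.09, and on the siRND3 arrays many IL1A spots were open.

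The other ligands gave no call. IL18, the gene for a cytokine that is also cut by caspase-1, lay between 1.30 and 1.83 (log2), with none of the 9 or 10 spots kept on an array well above background, and was not tested. IL33, the gene for a nuclear alarmin, was at 5.19, 4.43 and 4.45 in siControl cells at 24 h and 4.58, 4.41 and 4.80 in siRND3 cells, and the groups overlapped. Its log2 difference was -0.09 at 24 h (95% interval -0.63 to 0.44, limma adjusted p = 0.831) and 0.44 at 48 h (limma adjusted p = 0.533). The sign of the value at 24 h turned to 0.16 without siControl replicate 1, which was the highest of the 6 arrays.

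IL1RN, which encodes the receptor antagonist, had 2 probes that disagreed, both annotated to the same RefSeq transcript. Probe A_33_P3246833 was at 8.94, 9.00 and 9.08 (log2) in siControl cells at 24 h, 8.73, 8.76 and 8.68 in siRND3 cells at 24 h, 9.53 in siControl cells at 48 h and 7.69 in siRND3 cells at 48 h. The groups did not overlap at 24 h, and the widest gap was at 48 h. Probe A_33_P3246829 was at 6.78, 6.77 and 6.79 against 7.03, 7.04 and 6.83 at 24 h, and at 7.08 against 7.10 at 48 h. Here the siRND3 arrays were the higher ones at 24 h, and at 48 h both arrays lay within 0.02 of each other.

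At 24 h neither IL1RN probe passed, with log2 differences of -0.29 for A_33_P3246833 (limma adjusted p = 0.0529) and 0.19 for A_33_P3246829 (limma adjusted p = 0.200). At 48 h the first probe was at 28.0% of the siControl level, a difference of -1.84 (SE 0.13, limma adjusted p = 0.0005), while the second differed by 0.02 (95% interval -0.33 to 0.36, limma adjusted p = 0.968). The effect of knockdown on A_33_P3246833 differed by -1.55 between 48 h and 24 h (SE 0.15, limma adjusted p = 0.0165), but it no longer passed when siControl replicate 1, 2 or 3 was left out (limma adjusted p = 0.0693, 0.0612 and 0.0717). Between 24 h and 48 h this probe fell by 1.03 in siRND3 cells (limma adjusted p = 0.0046), and it was higher by 0.52 in siControl cells without passing (limma adjusted p = 0.0505). Its call at 24 h changed with the setting: it passed after normexp correction (limma adjusted p = 0.0218), in the deposited log2 values (0.0342) and with the filter on all 6 arrays (0.0478). The mean of both probes did not pass, with a difference of -0.05 (limma adjusted p = 0.647). Nor did this probe in a fit of all 8 arrays with terms for treatment and time (-0.68, limma adjusted p = 0.106).

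The signalling receptor gene IL1R1, which the study names as lowered, did not pass at either time. Probe A_33_P3396389, a single spot, was at 7.16, 7.49 and 7.30 (log2) in siControl cells and 6.88, 6.51 and 7.04 in siRND3 cells at 24 h, a difference of -0.50 (95% interval -0.88 to -0.13, limma adjusted p = 0.0911). Probe A_24_P200023 was at 5.25, 4.93 and 5.19 against 4.90, 4.88 and 4.84, a difference of -0.25 (limma adjusted p = 0.169). Both probes had every siRND3 array below every siControl array at 24 h. At 48 h the differences were -0.47 (limma adjusted p = 0.314) and 0.03 (limma adjusted p = 0.947). At 24 h IL1R1 was called lower by the significance analysis of microarrays (SAM) named in the methods, in a fit with terms for treatment and time, and on the mean of both probes, where the difference was -0.38 (limma adjusted p = 0.0184).

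IL1RAP, the accessory receptor chain, was the member whose tested probes both lay higher in siRND3 cells at 24 h, without passing. Probe A_23_P170857 was at 7.46, 7.81 and 7.70 (log2) in siControl cells and 7.86, 8.02 and 8.15 in siRND3 cells, a difference of 0.35 (95% interval 0.06 to 0.65, limma adjusted p = 0.118). Probe A_23_P336554 ran from 7.16 to 7.32 and from 7.20 to 7.46 in these groups, which overlapped, with a difference of 0.12 (limma adjusted p = 0.469). At 48 h the differences were -0.05 and 0.22 (limma adjusted p = 0.929 and 0.472). IL1R2, the decoy receptor, was not well above background on any siControl array at 24 h (2.72, 2.87 and 2.56) and on 1 of 3 siRND3 arrays (2.29, 2.69 and 3.44), and it was not tested. At 48 h it was well above background in siControl cells (3.86) and not in siRND3 cells (2.86), with 1 array each and no test. With the background correction used here, that is at most 50.1% of the siControl level.

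CASP1 gave the smallest difference of the tested member probes at 24 h. It was at 8.82, 8.70 and 8.77 (log2) in siControl cells and at 8.80, 8.71 and 8.79 in siRND3 cells, so the groups overlapped, and the difference was 0.00 (95% interval -0.17 to 0.18, limma adjusted p = 0.981). At 48 h it was at 8.97 and 9.34, a difference of 0.37 that did not pass (limma adjusted p = 0.104). From 24 h to 48 h CASP1 rose by 0.57 in siRND3 cells (limma adjusted p = 0.0231), but it did not pass without siControl replicate 1, 2 or 3 (limma adjusted p = 0.0537, 0.0507 and 0.0622). The change in siControl cells was 0.21 (limma adjusted p = 0.303), and the knockdown effects at the 2 times differed by 0.36 (limma adjusted p = 0.262), so a difference between the groups in this rise was not shown.

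At 48 h, then, 3 of the 7 tested genes were lower in siRND3 cells (IL1A, IL1B and IL1RN) and none was higher, against 13.3% of all genes that were lower and 27.6% that changed in either direction. The comparisons at both times, with time and between times use some of the same arrays and are not independent of each other.

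**Figure D3:**
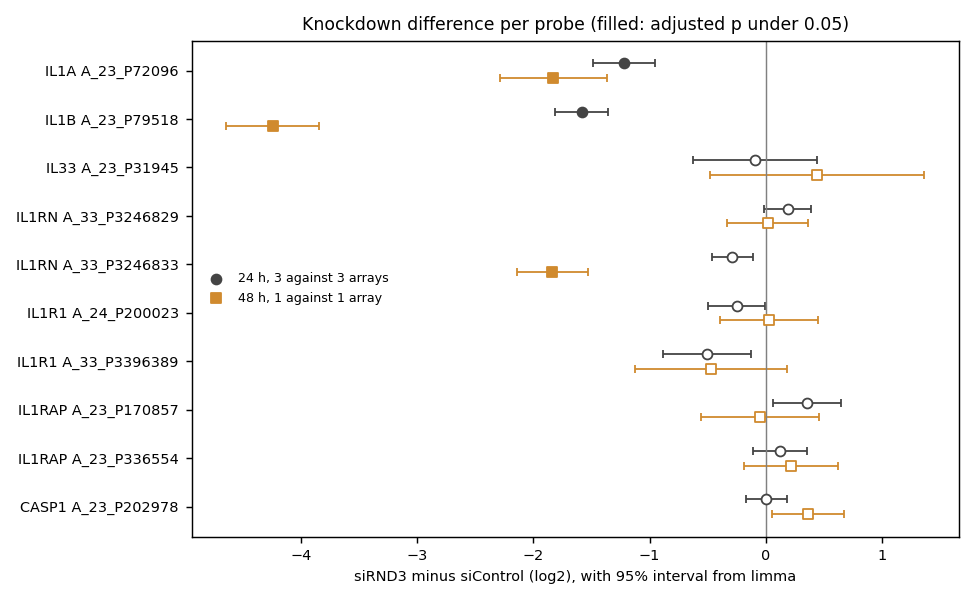
Log2 difference between siRND3 and siControl for the 10 tested probes at 24 h (circles) and 48 h (squares), with 95% intervals from limma and filled symbols where the adjusted p was under 0.05. IL1B moved from -1.59 to -4.24, and the IL1RN probes parted at 48 h, at -1.84 and 0.02.

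The genes that carry or modify the signal were read from a list of 48 genes, of which 46 had a probe and 40 were tested. At 24 h, 3 were higher, 4 were lower and 33 did not pass, so 7 of 40 changed, close to the 16.4% of all genes, with a median log2 difference of -0.03 over its 47 probes against 0.05 over all probes. Of the adaptors and kinases, 2 were higher and 3 lower of 15. MYD88, the adaptor that joins the receptor to the IRAK kinases, fell by 0.81 (limma adjusted p = 0.0022). TAB2, which links TRAF6 to the kinase TAK1, fell by 0.86 and 0.64 on its 2 probes (limma adjusted p = 0.0017 and 0.0075), and UBE2N, the enzyme that builds K63-linked ubiquitin chains with TRAF6, fell by 0.50 (limma adjusted p = 0.0251). TRAF6 itself rose by 0.44 (limma adjusted p = 0.0246), as did PELI1, a ubiquitin ligase that binds IRAK proteins, by 0.71 (limma adjusted p = 0.0377).

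The IRAK kinases next to the receptor did not pass at 24 h, with log2 differences of -0.03 and -0.05 for the IRAK1 probes, -0.30 for IRAK2 and -0.17 for IRAK4 (limma adjusted p = 0.863, 0.808, 0.0754 and 0.312). IRAK3 was dim on every array and was not tested. The 3 subunits of the IKK complex, CHUK, IKBKB and IKBKG, did not pass either. Of 11 tested genes of inflammasomes and processing proteases, CARD8, which binds caspase-1, was the 1 that passed, and it fell by 0.83 (limma adjusted p = 0.0045). None of 5 other family ligands passed, and of 5 other family receptors only IL1RL2, the IL-36 receptor, did, with a rise of 0.69 (limma adjusted p = 0.0351). The calls of MYD88, TAB2 and CARD8 held under every alternative run. Those of IL1RL2, TRAF6, PELI1 and UBE2N did not, and with normexp the difference of IL1RL2 was 0.12 (limma adjusted p = 0.311).

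At 48 h, 3 genes of this list were higher and 6 lower, 9 of 40 against 27.6% of all genes. MYD88, TAB2, UBE2N, CARD8 and TRAF6 kept their direction and passed, with log2 differences of -1.22, -1.71 and -1.45, -0.92, -1.51 and 0.81 (limma adjusted p between 0.0008 and 0.0129). PELI1 and IL1RL2 did not pass at 48 h, at 0.70 and -0.37 (limma adjusted p = 0.141 and 0.427). The ligand gene IL36B and the antagonist gene IL36RN, which lie with IL1A, IL1B and IL1RN in the interleukin-1 cluster on chromosome 2 and are named here after their values were seen, were at -0.93 and -1.47 (limma adjusted p = 0.0046 and 0.0060). At 24 h they had differed by -0.29 and -0.46 without passing (limma adjusted p = 0.0545 and 0.0673). Besides TRAF6, the genes called higher at 48 h were PELI2, at 1.07, and TOLLIP, at 0.55 on the probe that passed. The other TOLLIP probe, at 0.71, did not pass. PELI2 and TOLLIP are likewise named after their values were seen.

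Genes known to be induced by interleukin-1 were read from a list of 26, of which 25 had a probe and 23 were tested. At 24 h, 14 of them were lower in siRND3 cells, 9 did not pass and none was higher, against 9.26% of all genes lower, and the median log2 difference over their 27 probes was -0.63 against 0.05 over all probes. Several are also induced by other signals, RELB was among genes that the study names as lowered, and the list was drawn up with results of these arrays known, so its direction is no independent evidence. At 48 h, 16 were lower and none higher, against 13.3% of all genes lower, with a median of -1.33.

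The largest differences in that list were those of CSF2, the gene for the growth factor GM-CSF, at -3.05 and of BIRC3, an apoptosis inhibitor that acts in NF-kB signalling, at -2.78 (limma adjusted p = 0.0003 and 0.0004). CSF2 was at a mean of 6.36 ± 0.05 (SD, n = 3, log2) in siControl and 3.32 ± 0.34 in siRND3 cells at 24 h. CSF2 was well above background on 2 of these 3 siRND3 arrays. With normexp the differences of CSF2 and BIRC3 were -0.95 and -1.16. The neutrophil chemokine genes CXCL8, CXCL2 and CXCL1 fell by 1.31, 0.82 and 0.80 on their most changed probes (limma adjusted p = 0.0187, 0.0029 and 0.0099), with the call of CXCL8 lost without siControl replicate 1, 2 or 3 (limma adjusted p = 0.0619, 0.0664 and 0.0658). The cytokine genes LIF, IL11 and IL6 fell by 1.24, 1.14 and 0.79 (limma adjusted p = 0.0009, 0.0035 and 0.0018), LIF on its more changed probe. The other LIF probe fell by 0.74 (limma adjusted p = 0.0060).

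Other genes of the list did not pass at 24 h, among them the NF-kB feedback genes TNFAIP3 (log2 difference -0.08, limma adjusted p = 0.545), NFKBIZ (-0.46, 0.566) and ZC3H12A (-0.09, 0.554), the mitochondrial enzyme gene SOD2 (-0.04, 0.766), the matrix protease genes MMP1 and MMP3 (0.20 and -0.02, 0.141 and 0.924) and the NF-kB subunit gene NFKB1 (-0.02, 0.895). ICAM1, an adhesion molecule, was at -0.30 (limma adjusted p = 0.0805). NFKBIA, another NF-kB feedback gene, did pass at 24 h, at -0.32 (limma adjusted p = 0.0409), but lost its call under 9 of 17 alternatives. At 48 h, with 1 array per treatment, the differences of TNFAIP3, NFKBIZ, ZC3H12A and ICAM1 were -0.68, -1.49, -0.24 and -0.78. Those of NFKBIZ and ZC3H12A did not pass at 48 h either. From 24 h to 48 h, 10 genes of the list rose in siControl cells and none fell, against 1.19% of all genes that rose. In siRND3 cells 1 rose and 8 fell, against 9.19% of all genes that fell. For 9 genes the knockdown effect differed between the times, each towards lower values at 48 h, against 2.56% of all genes.

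**Figure D4:**
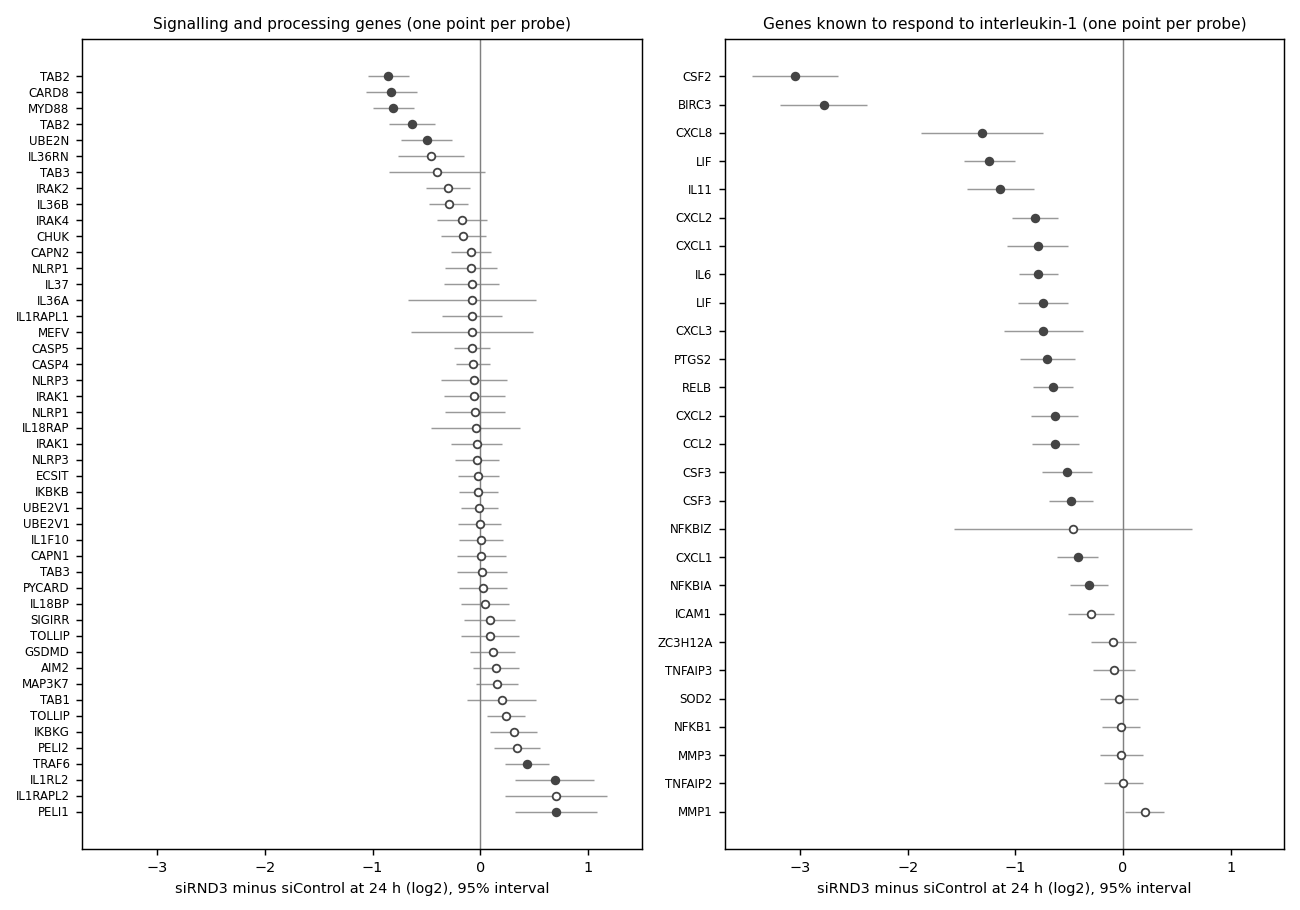
Log2 difference between siRND3 and siControl at 24 h for each tested probe of the signalling and processing genes (left) and of the interleukin-1-induced genes (right), with 95% intervals from limma, filled where the adjusted p was under 0.05. On the left 3 genes rose and 4 fell around a median of -0.03, and on the right 14 genes fell around a median of -0.63.

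Across the 8 arrays and 26808 probes well above background on all of them, the 5 named genes outside the member list whose profile was most like that of IL1B were EVI2B (Pearson r = 0.996), RSL1D1 (0.996), ST3GAL5 (0.995), GTF2I (0.994) and VAT1L (0.993). These values describe the 8 arrays, which share treatment and time, and carry no test. All 5 were lower in siRND3 cells at 24 h, by 0.43 (GTF2I) to 1.01 (EVI2B) on the log2 scale. At 48 h all 5 were at their highest in siControl cells and at their lowest in siRND3 cells. The 5 genes were picked for likeness to IL1B over these same arrays, so the shared pattern follows from the choice. Among the member probes well above background on all 8 arrays, which leaves out IL1A, r with IL1B was 0.93 for IL1RN probe A_33_P3246833, 0.681 and 0.3 for the IL1R1 probes, and between -0.4 and -0.268 for the second IL1RN probe, IL33, both IL1RAP probes and CASP1.

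**Figure D5:**
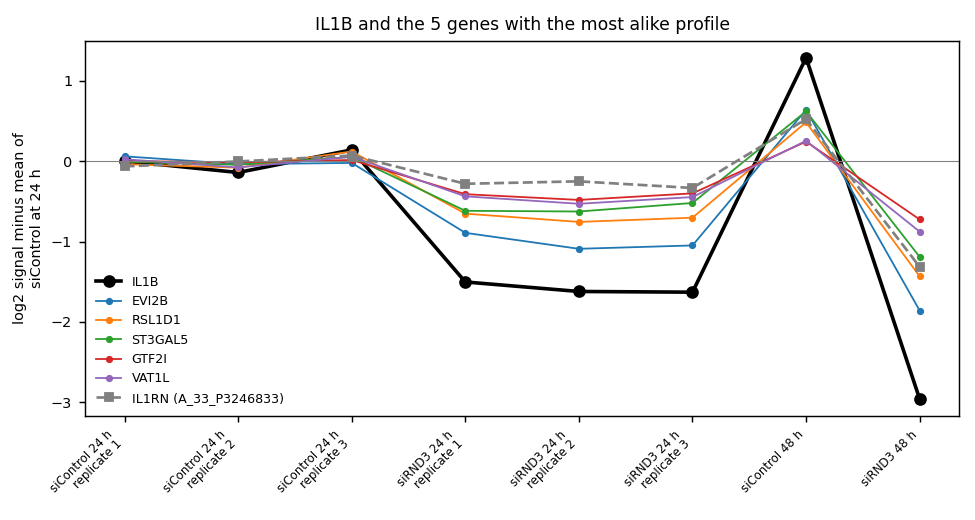
Log2 signal on each of the 8 arrays, relative to the mean of the 3 siControl arrays at 24 h, for IL1B, the 5 genes with the most alike profile and IL1RN probe A_33_P3246833. In siRND3 cells at 24 h the lines lie below 0, from IL1RN nearest to 0 to IL1B at the bottom; they rise in siControl cells at 48 h and reach their lowest point in siRND3 cells at 48 h, with IL1B spanning the widest range.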

How the data were processed

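Total RNA of the 8 samples was hybridised to 1-colour Agilent arrays. The authors processed the scans with Agilent Feature Extraction 10.7.3.1, and the deposited scanner files hold spot intensity, background-corrected within each array per the file headers. The deposited log2 values, for which the authors state quantile normalisation, had the rank order of the spot medians (lowest Spearman correlation 1) and served as an alternative. Without the 4259 control spots of 62976, processed intensities were put on the log2 scale and quantile-normalised together over the 8 arrays. Spots marked as outliers (0.365% to 0.530%) were then left out, and spots of a probe were averaged. No spot was saturated. A probe was well above background on an array when at least 50% of its spots were so marked. The 28759 probes that met this in every replicate of siControl or siRND3 at 24 h were tested with limma 3.58.1 (R 4.3.3), using the 6 arrays at 24 h or, for 48 h and time, a model of 4 groups, with Benjamini-Hochberg adjustment at 0.05. The script was tested on simulated data. A gene changed when at least 1 probe passed and none passed the other way. Where a probe was dim on every array of a group, a fold is a lower bound, against the higher of its own value and the lowest signal well above background. Probes were named by RefSeq transcript accession (25422 of 42405, 60.0%) in assembly GRCh38.p14; the arrays were annotated on hg19. The number of arrays limits the precision.

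All 9 member genes were named, with every probe. From the lists of signalling and response genes, those past the threshold at 24 h were named, at most the 8 with the largest difference in each, plus MYD88, IRAK1, IRAK2, IRAK4 and TRAF6; further genes named were chosen after their values were seen. Members, lists, tests and alternatives were chosen with earlier results of these data known. The alternatives were 75th percentile scaling, normexp correction with an offset of 50, the deposited values, normalisation over 6 arrays, no filter or a filter on all 6 arrays, SAM over all 20 assignments of the 6 arrays, a block for the replicate number, a fit of both times with terms for treatment and time, array weights, probe means per gene, and each array at 24 h left out in turn. Same-numbered arrays did not deviate together (correlations 0.00, -0.01 and 0.13), so the numbers were not taken to pair samples.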

Additional observations from a re-analysis of the deposited data

Results flagged for a closer look

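The knockdown effect on IL1B differed between the times: the log2 difference between siRND3 and siControl was -1.59 at 24 h and -4.24 at 48 h, a difference of -2.66 (limma adjusted p = 0.0098), lost without siControl replicate 1 (limma adjusted p = 0.0587). The effect on IL1RN probe A_33_P3246833 differed by -1.55 (limma adjusted p = 0.0165), from -0.29 to -1.84, and this was lost without siControl replicate 1, 2 or 3 (limma adjusted p = 0.0693, 0.0612 and 0.0717). Each value at 48 h rests on 1 array per treatment.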

How the results depend on the processing

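IL1A and IL1B were lower at 24 h under every alternative that tested them, with limma adjusted p up to 0.0177 and 0.0129 and log2 differences from -1.37 to -0.26 and from -2.25 to -1.47. The count of interleukin-1 genes changed was 2 to 3 at 24 h, 2 to 3 at 48 h and 2 to 3 with time in siRND3 cells. The count whose effect differed between times, 2 as reported, ranged from 0 to 2 with 1 array left out. The count changed with time in siControl cells, 1 as reported, was 2 with normexp, with the deposited values and with the filter on all 6 arrays, and 0 to 1 with 1 array left out. Signalling genes changed at 24 h, 7 as reported, numbered 11 with normexp, 4 without a filter, 12 with all 8 arrays, 13 on the mean of a gene's probes and 3 to 6 with 1 array left out. With the replicate number as a block, 2 interleukin-1 genes, 3 signalling genes and 11 of the 14 response genes passed. Response genes numbered 10 to 15 over all alternatives.

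Of 76 single-probe results, 8 changed sign under some alternative, none of them past the threshold as reported. At 24 h these were IL33 (0.0416 with all 8 arrays, -0.22 to 0.16 with 1 array left out, where it was 0.000499 without siRND3 replicate 2), IL1RN A_33_P3246829 (-0.0499 on the mean of both probes) and CASP1 (-0.00866 scaled to the 75th percentile, -0.0016 with array weights, -0.0292 to 0.0343 with 1 array left out). At 48 h they were IL1RN A_33_P3246829 (-0.0126 scaled to the 75th percentile), IL1R1 A_24_P200023 (-0.0814 with normexp, -0.11 deposited) and IL1RAP A_23_P170857 (0.0083 with normexp, 0.0044 deposited). The effect at 48 h minus that at 24 h of IL1R1 A_33_P3396389 was -0.0064 scaled to the 75th percentile and -0.12 to 0.15 with 1 array left out, and the time change of IL33 in siControl cells was 0.0206 scaled and -0.31 to 0.0661 with 1 array left out. The cause was not tested. Signals near background limit IL1A, IL1R2 and IL18.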
